A study of Mus musculus with 2 samples.

Results

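The 10 genes Spp1, Krt19, Krt7, Cftr, Aqp1, Pkhd1, Muc1, Dcdc2a, Bicc1 and Vtcn1 of the maturing pancreatic duct were followed through a single-cell RNA sequencing experiment on the mouse embryonic pancreas. They were taken by name from the 22023 genes counted in both libraries, and all 10 had molecules in each. The groups were wild-type embryos (WT) and embryos in which the Pdx1+ progenitors of the pancreas had lost Mettl3 (Mettl3pKO), both at the stage E15.5 (embryonic days). The Mettl3 protein adds the methyl group of N6-methyladenosine (m6A) to RNA. The labels place the loss in Pdx1+ cells, and Mettl3 RNA in other classes is given with the class check. The labels name neither a driver line nor the deleted exons, nor is the number of embryos behind each library given there. There was 1 library per genotype, so no difference below has a replicate check and no test was made; every interval covers counting error only.

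Pancreatic ducts form from the trunk of the branching epithelium, a bipotent tissue that also releases endocrine progenitors. The mature duct carries enzymes away from the acini and adds a bicarbonate-rich fluid to them, a task that needs an apical chloride and bicarbonate channel, water channels and a sealed epithelium. Duct cells keep a primary cilium, and faults in ciliary and polycystic genes lead to cysts in ducts of the pancreas, liver and kidney.

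The start sites of 8 of the 10 genes were matched in RefSeq (GRCm38.p6), and the 250 bases before each were searched on both strands for 3 short motifs of factors known in the trunk and duct. Krt19 and Bicc1 had no match. The SOX motif ACAAAG stood in the windows of Spp1 and Vtcn1, 2 of 8, against 16.5% of 32851 RefSeq promoter windows of the same length. The TEAD motif GGAATG was in the Muc1 window, against 12.6% of all, and the RBPJ motif GTGGGAA was in none, against 5.42%. No window of the 8 genes held more than 1 match, so none overlapped, and those of Krt7, Cftr, Aqp1, Pkhd1 and Dcdc2a held none. A match describes the letters and not a bound site. The windows shown are those of the 4 genes that stood at least 1.5-fold lower in Mettl3pKO duct cells. Capitals mark the motif letters, each sequence runs 5′ to 3′ on the gene's strand, and positions count back from the start site. In Spp1 (chr5:104434861-104435110, plus strand) the capitals are the SOX motif of the other strand at -168, and in Vtcn1 (chr3:100825209-100825458, plus strand) that of the gene's strand at -15. The windows of Pkhd1 (chr1:20618058-20618307, minus strand) and Aqp1 (chr6:55336049-55336298, plus strand) held none of the letters searched.
Spp1 promoter: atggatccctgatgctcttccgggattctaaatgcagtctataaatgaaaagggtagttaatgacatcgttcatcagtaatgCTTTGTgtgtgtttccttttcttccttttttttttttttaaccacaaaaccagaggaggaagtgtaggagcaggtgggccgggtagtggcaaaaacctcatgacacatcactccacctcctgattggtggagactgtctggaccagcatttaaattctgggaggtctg
Vtcn1 promoter: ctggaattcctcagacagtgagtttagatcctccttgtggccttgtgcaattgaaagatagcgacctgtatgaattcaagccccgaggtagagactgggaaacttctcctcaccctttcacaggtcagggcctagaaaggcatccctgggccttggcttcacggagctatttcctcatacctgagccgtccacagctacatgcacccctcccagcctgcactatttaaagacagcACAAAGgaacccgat
Pkhd1 promoter: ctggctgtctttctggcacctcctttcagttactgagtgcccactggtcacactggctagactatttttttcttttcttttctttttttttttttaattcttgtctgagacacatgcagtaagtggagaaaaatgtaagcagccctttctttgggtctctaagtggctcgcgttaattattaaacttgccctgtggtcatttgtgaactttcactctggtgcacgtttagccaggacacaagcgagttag
Aqp1 promoter: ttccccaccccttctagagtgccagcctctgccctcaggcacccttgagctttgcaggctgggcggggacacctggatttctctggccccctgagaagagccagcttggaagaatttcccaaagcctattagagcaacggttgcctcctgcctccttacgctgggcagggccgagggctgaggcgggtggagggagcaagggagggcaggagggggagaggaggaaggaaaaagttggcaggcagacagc

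The WT table held 6384 complete cells with a median of 10824 unique molecular identifiers (UMIs, 1 per captured RNA molecule); 3624 complete Mettl3pKO cells had a median of 16481. Both tables ran from deep to shallow cells and stopped inside a line, at 3803 UMIs in WT and at 10719 in Mettl3pKO, so values in cells of 13000 UMIs or more are given where they change a result. The libraries shared 33 cell indices. Scrublet, a doublet caller, marked 5.85% of WT cells, which were removed, but only 0.0552% of Mettl3pKO cells, where its automatic call thus failed; 2 clusters of high median doublet score were set aside, and other doublets may remain. Cells were clustered without the 10 genes and named from other markers. Duct and trunk-like cells numbered 1297 in WT (30.6% of epithelial cells) and 406 in Mettl3pKO (14.0%). At 13000 UMIs or more they numbered 320 and 318, beside 945 and 1913 acinar-like cells, so these shares depend on depth. All 10 markers of the duct and trunk-like class, none of them among the 10 genes described, were higher there than in acinar-like cells in WT, and 8 of 10 in Mettl3pKO. Sox9 stood at 862 UMIs per 1000000 (CPM) in WT and 828 in Mettl3pKO, against 203 and 362 in acinar-like cells, and Glis3 at 66.1 and 55.0, against 3.92 and 4.76. The exceptions in Mettl3pKO were Hes1, at 927 CPM in duct and 1039 in acinar-like cells, and Ambp, at 96.4 and 125. Mettl3 itself was at 17.8 CPM in the WT class and 12.0 in the Mettl3pKO class, a ratio of 0.675 (95% interval 0.518 to 0.870). In acinar-like cells it was at 9.34 and 7.27 CPM (0.778, 0.656 to 0.923) and in mesenchyme-like cells, outside the lineage, at 16.4 and 13.5 (0.824, 0.597 to 1.12). The lowest ratio, 0.351 (0.131 to 0.805), was that of erythroid-like cells, on 7 Mettl3pKO UMIs. Alpha-like, beta-like and immune cells had 0.746, 0.688 and 0.881, and mesothelium-like cells 1.58, all with intervals that held 1. RNA levels thus neither show a complete loss nor place it in 1 lineage, and UMIs from outside the deleted part do not report the deletion.

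Among the 7 epithelial classes of WT, 9 of the 10 genes were highest in duct and trunk-like cells; the exception was Krt7. In Mettl3pKO 4 classes held 30 cells or more, and 8 of the 10 were highest in the duct class, with Krt7 and Muc1 as the exceptions. Spp1 (chromosome 5, 104435118 to 104441050, plus strand, mm10), which encodes the secreted phosphoprotein osteopontin, was largely a duct gene. It stood at 3150 CPM in the WT duct class (3122 to 3179) and at 95.6 in endocrine progenitor-like cells, the next class, and 97.6% of its UMIs in WT epithelial cells came from duct and trunk-like cells. In Mettl3pKO the duct level was 1770 CPM (1738 to 1803), the next was 48.1 in alpha-like cells, and the duct class gave 87.9% of the epithelial UMIs. Dcdc2a (chromosome 13, 25056004 to 25210706, plus strand), whose protein binds microtubules and lies in the primary cilium, was also largely confined to ducts. It was at 268 CPM in the WT duct class against 21.7 in Fev precursor-like cells, and at 256 in the Mettl3pKO duct class against 8.55 in alpha-like cells. The duct class gave 96.5% of its epithelial UMIs in WT and 90.9% in Mettl3pKO.

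The keratins Krt19 and Krt7, of the family of intermediate filament proteins that marks simple epithelia, were spread over more classes. Krt19 (chromosome 11, 100140810 to 100148665, minus strand) stood at 205 CPM in WT duct cells (197 to 212), 92.5 in endocrine progenitor-like and 46.3 in acinar-like cells. Its highest level lay outside the epithelium, at 802 CPM in mesothelium-like cells of WT and 653 in Mettl3pKO. Krt7 (chromosome 15, 101411043 to 101430313, plus strand) was highest in endocrine progenitor-like cells of WT, at 476 CPM (443 to 511). It then stood at 194 in Fev precursor-like, 185 in beta-like, 158 in alpha-like, 116 in delta-like, 95 in duct and trunk-like and 13.1 in acinar-like cells. The intervals of neighbours in this order overlapped for the Fev precursor-like and beta-like pair and for the delta-like and duct pair. Mettl3pKO kept Krt7 in endocrine cells: alpha-like cells stood at 167 CPM, beta-like cells at 158 and the duct class at 102.

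The transport genes differed in how far they were confined to ducts. Cftr (chromosome 6, 18170687 to 18322768, plus strand), the apical chloride and bicarbonate channel, was scarce. It stood at 3.39 CPM in WT duct cells (51 UMIs) and 5.33 in Mettl3pKO ones (35 UMIs), and after each cell was thinned to 7811 UMIs it was detected in 2.28% and 3.45% of them, against 0.278% of acinar-like cells of Mettl3pKO. Delta-like cells of WT, with 3.24 CPM, could not be told from the duct class. Mesothelium-like cells held 10.1 CPM of Cftr in WT, above the duct class, and 9.58 in Mettl3pKO, where the intervals of both classes overlapped. Aqp1 (chromosome 6, 55336432 to 55348555, plus strand), a water channel, stood at 74.9 CPM in WT duct cells and at 4.14 in acinar-like cells, the next epithelial class. It was far higher in endothelium-like cells of WT (750 CPM), and also present in mesothelium-like (201) and erythroid-like (132) cells, where this channel is well known. All 3 classes were lower in Mettl3pKO, with 92 Aqp1 UMIs of 199854 (11 cells), 157 of 1252686 and 22 of 838665. The WT counts were 523 of 697441, 398 of 1976254 and 189 of 1430341. Outside the epithelium, immune and smooth muscle-like cells went the other way, on 10 and 8 Mettl3pKO UMIs.

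Of the polycystic genes, Pkhd1 (chromosome 1, 20057779 to 20618064, minus strand), which encodes the ciliary membrane protein fibrocystin, stood at 57.3 CPM in WT duct cells and at 8.65 or less in the other epithelial classes. Bicc1 (chromosome 10, 70922832 to 71159700, minus strand), an RNA-binding protein whose loss gives cystic kidneys, was at 878 CPM in WT duct cells and 684 in Mettl3pKO ones. It was also present in mesenchyme-like cells at 193 and 190 CPM, about the same level in both libraries (ratio 0.981, 0.902 to 1.07). The surface genes reached into the acinar class. Muc1 (chromosome 3, 89229057 to 89233381, plus strand), a membrane-bound mucin of apical surfaces, stood at 141 CPM in duct and 108 in acinar-like cells of WT. In Mettl3pKO this order turned, with 168 in duct and 184 in acinar-like cells. Vtcn1 (chromosome 3, 100825459 to 100896922, plus strand), a B7 family protein that restrains T cells, stood at 55.8 CPM in WT duct cells and 7.03 in acinar-like cells, and at 32.0 and 20.5 in Mettl3pKO. Annotated antisense genes overlap Krt7, Cftr, Pkhd1 and Bicc1, and whether reads were assigned by strand is not stated.

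**Figure D1:**
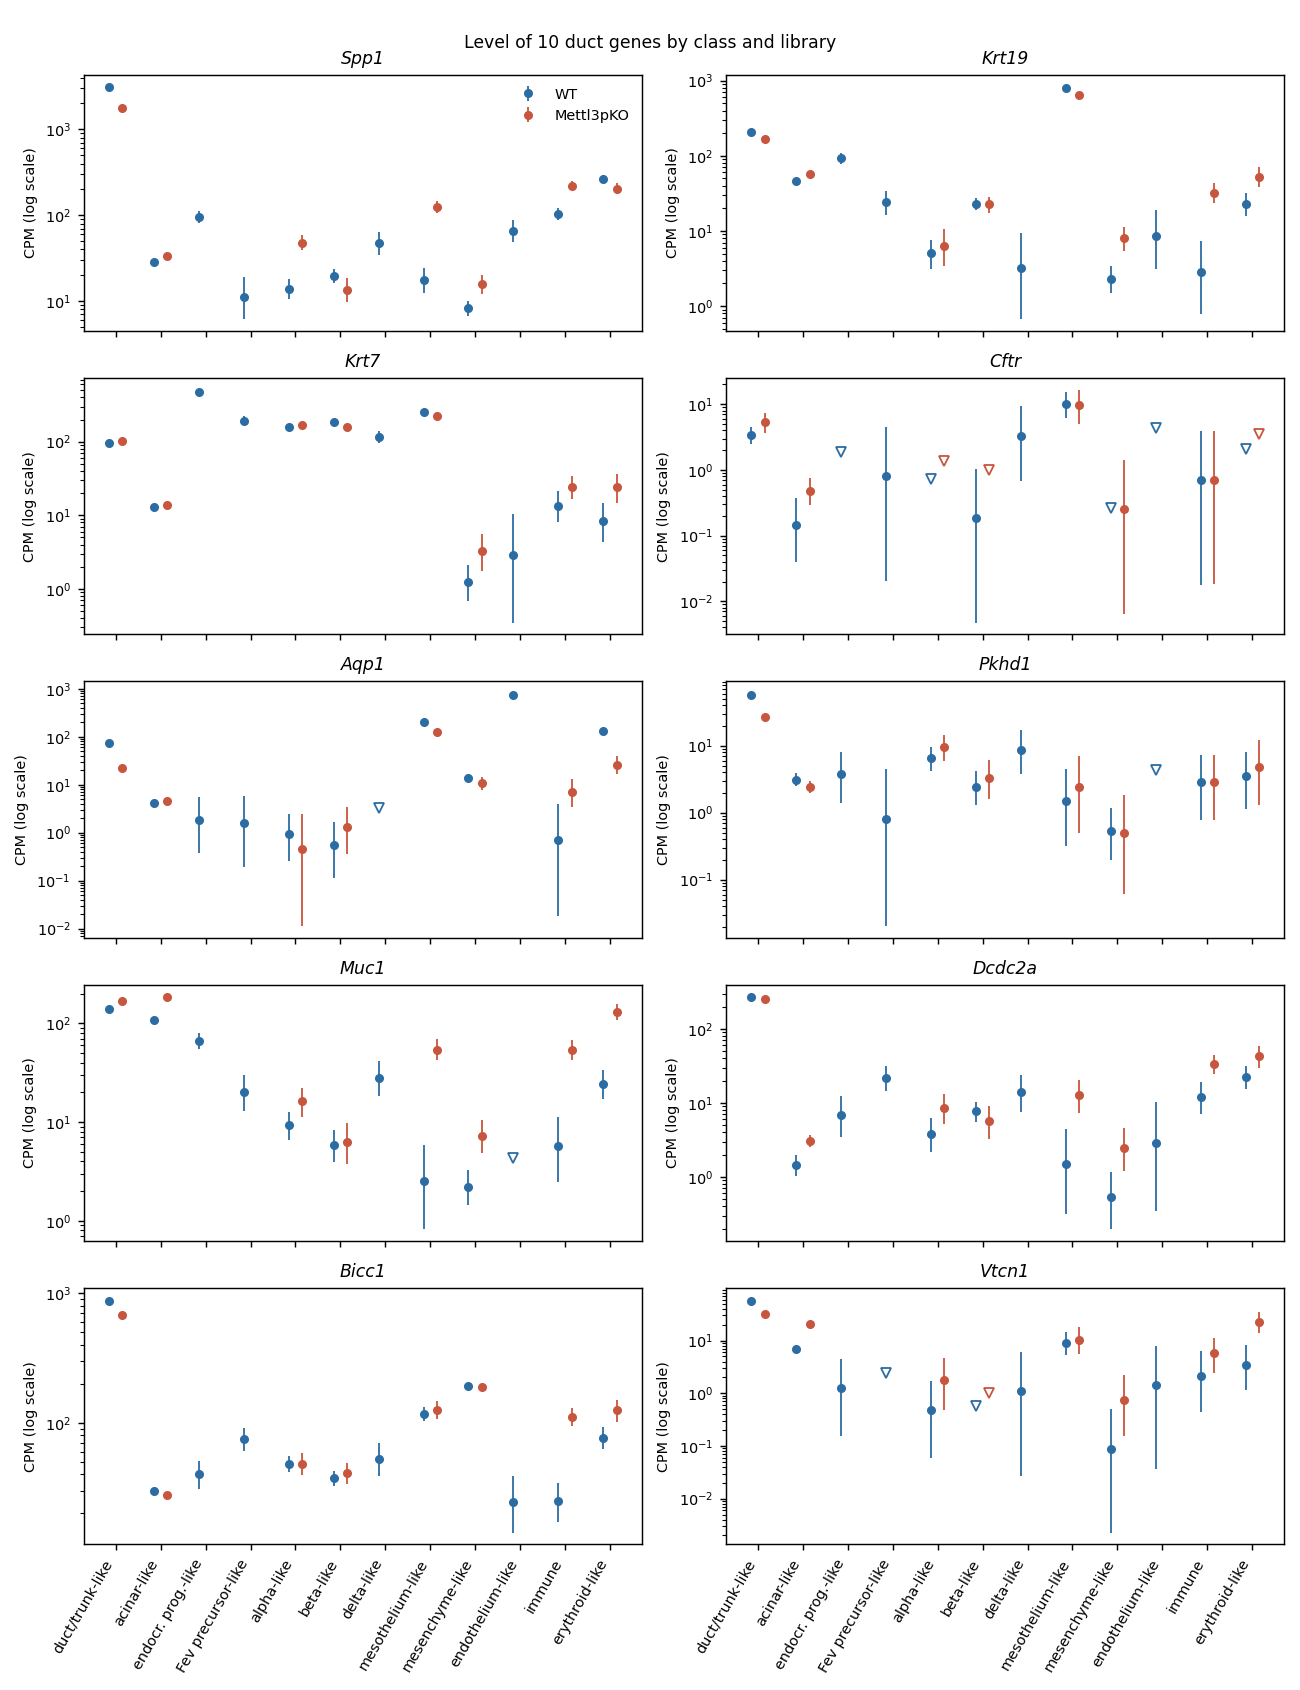
Level of each duct gene (CPM, log axis) in 12 classes of at least 30 cells, in WT (blue) and Mettl3pKO (red), with exact 95% Poisson intervals. Open triangles mark the level that a count of 0 allows (3 UMIs). In WT, Spp1 and Dcdc2a peak in duct and trunk-like cells, Krt7 in endocrine progenitor-like cells, Aqp1 in endothelium-like cells and Krt19 in mesothelium-like cells.

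For each of the 10, the 3 genes with the most similar pattern were taken by Pearson correlation of log2(CPM + 1) over 21 class-by-library sums from 13 classes, among 11767 genes. These values describe sums that share libraries and depth. Spp1 was most like Ppp1r1b (r = 0.95), 1700011H14Rik (0.93) and Gsta3 (0.92), and Dcdc2a like Ppp1r1b (0.88), Cldn2 (0.88) and Spp1 itself (0.88). The nearest to Muc1 were Mia (0.95), Sox9 (0.94) and St14 (0.93), and those to Vtcn1 were Epn3 (0.95), Slc39a4 (0.95) and Wfdc2 (0.94). Krt7 was closest to Bicd1 (0.92), Evpl (0.92) and Frmd5 (0.92), and Bicc1 to Scara3 (0.91), Cdh6 (0.86) and Chrdl1 (0.86). For Krt19 the genes were Cxadr (0.88), Il17re (0.87) and Epha1 (0.86), and for Cftr Krt17 (0.89), Sbspon (0.88) and Ptgds (0.85). The Cftr values rest on 81 UMIs in WT and 87 in Mettl3pKO, with 0 in alpha-like cells of both. Pkhd1 was nearest to Map3k21 (0.87), Atp1b1 (0.87) and Shank2 (0.86), and Aqp1 to Crip2 (0.86), Tead4 (0.85) and Vamp5 (0.84). Within the 10, the highest correlation was that of Spp1 with Dcdc2a, and Pkhd1 was also close to Dcdc2a (0.78) and Spp1 (0.75). Krt7 and Aqp1 were the least alike, at -0.31.

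The duct and trunk-like class was made of 4 clusters, and the 10 genes were not evenly spread over them. Cluster 3, led by Kif23, held almost only cells called cycling. Cluster 6 was led by Gm14226, cluster 11 by Grin3a with the duct marker Fgfr3, and cluster 19 by Onecut2. Sox10, a marker of the neural list, was among the 10 leading genes of cluster 6 against all other cells. The libraries filled the clusters differently: cluster 11 held 33.3% of the WT class and 4.19% of the Mettl3pKO class (17 cells), whereas cluster 3 held 27.4% and 59.6% and cluster 19 held 3.93% and 14.8%.

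In WT, cluster 11 had the highest Bicc1 (1206 CPM), Aqp1 (109), Pkhd1 (89.6) and Vtcn1 (87.5). Cluster 19 had the highest Dcdc2a (449 CPM), Krt19 (292), Muc1 (255), Krt7 (139) and Cftr (19.6, from 10 UMIs), although its intervals overlapped those of cluster 11 for Krt7 and Dcdc2a. Spp1 ran the other way. It was highest in cluster 6, at 3584 CPM, and lowest in cluster 19, at 1625, where every cell still had a UMI of it. Thinned to equal depth, 90.4% of cluster 11 cells and 90.2% of cluster 19 cells of WT had 5 or more of the 10 genes, against 66.6% in cluster 3 and 68.4% in cluster 6. These differences between clusters describe the grouping and are not tests.

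**Figure D2:**
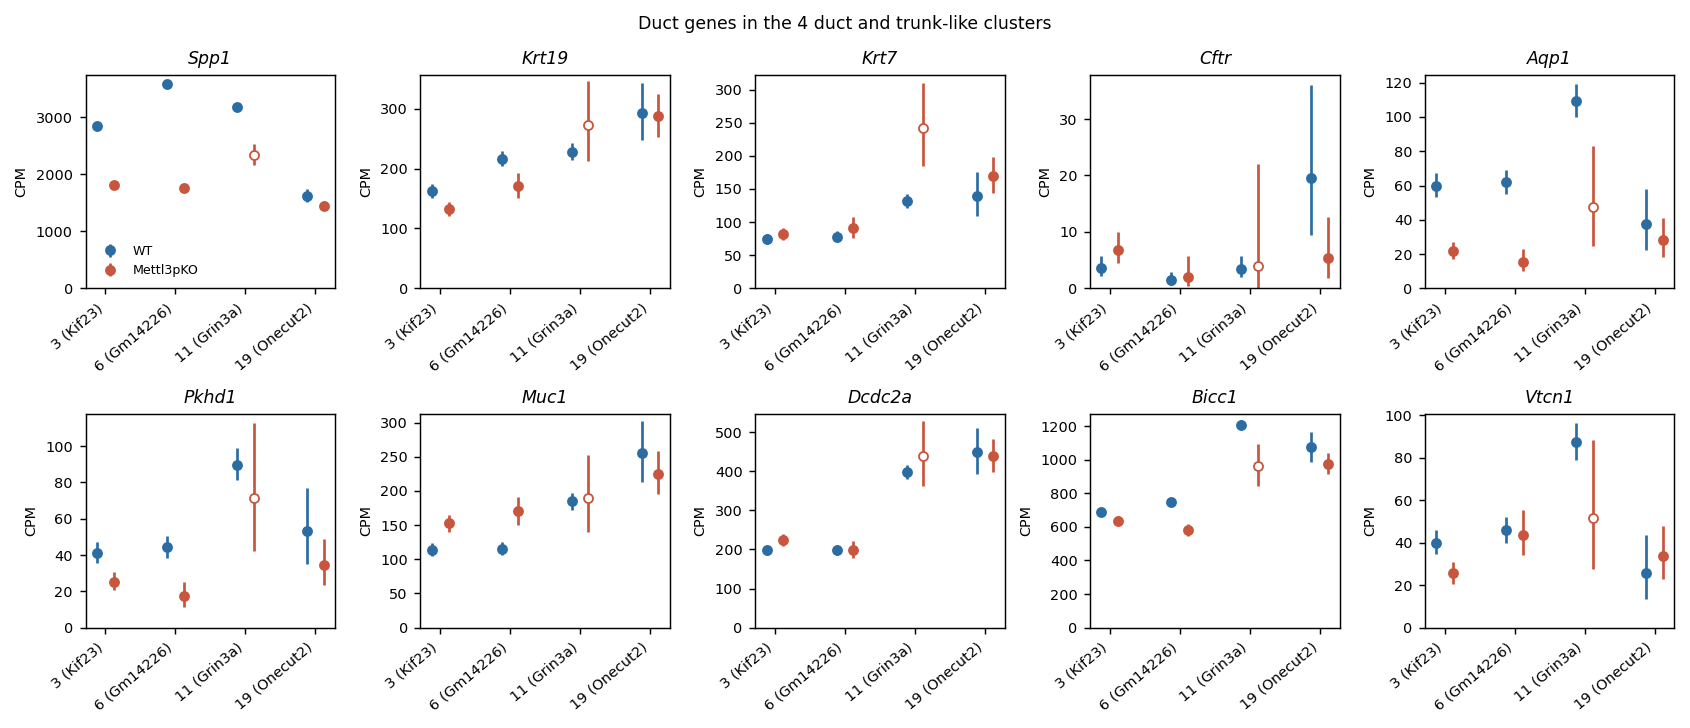
Level of each duct gene (CPM, linear axis from 0) in the 4 duct and trunk-like clusters, labelled by number and leading gene, in WT (blue) and Mettl3pKO (red) with exact 95% Poisson intervals; open points rest on under 30 cells. Spp1 is 1625 CPM in WT cluster 19 and 2842 or more in the other WT clusters. Cftr, Muc1 and Krt19 of WT are highest in cluster 19.

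Comparing genotypes in duct and trunk-like cells, 4 of the 10 genes were at least 1.5-fold lower in Mettl3pKO and 1 was at least 1.5-fold higher. Over the 12867 genes with 20 or more UMIs, 9.69% were that much lower and 12.0% that much higher. The median log2 ratio was -0.32 over the 10 and 0.02 over all these genes. The 4 lower genes were Aqp1, Pkhd1, Spp1 and Vtcn1, that is a water channel, a ciliary protein, a secreted protein and a surface ligand. Keratins, Muc1 and Dcdc2a kept levels nearer those of WT.

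Aqp1 had 74.9 CPM (70.6 to 79.4) in the WT class and 22.1 (18.6 to 26.0) in the Mettl3pKO class, a ratio of 0.295 (0.246 to 0.351). It was detected in 35.6% of thinned WT duct cells and 12.1% of thinned Mettl3pKO ones, against 3.13% and 2.64% of acinar-like cells. Pkhd1 had 57.3 CPM (53.6 to 61.3) and 26.5 (22.7 to 30.7), a ratio of 0.462 (0.390 to 0.544), and was in 32.7% and 14.8% of thinned cells, against 2.84% and 1.81% of acinar-like cells. Both genes were thus lower per molecule and in fewer cells. Spp1, at 3150 and 1770 CPM, had a ratio of 0.562 (0.551 to 0.574) and was still in 98.0% of thinned Mettl3pKO cells. Vtcn1 stood at 55.8 CPM (52.1 to 59.7) and 32.0 (27.8 to 36.6), a ratio of 0.573 (0.490 to 0.667).

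Bicc1 was at 878 CPM in WT cells and 684 in Mettl3pKO cells (ratio 0.778, 0.752 to 0.805), and Krt19 at 205 and 169 (0.825, 0.770 to 0.884). Dcdc2a, at 268 and 256 (0.955, 0.902 to 1.01), and Krt7, at 95 and 102 (1.08, 0.983 to 1.18), differed by less than counting error could show over the whole class. Within cycling cells both were higher in Mettl3pKO, Krt7 with a ratio of 1.22 (1.09 to 1.37) and Dcdc2a with 1.12 (1.05 to 1.20), and Krt7 was above 1 in each of the 3 clusters compared (1.10 to 1.22). Muc1 stood a little higher in Mettl3pKO, at 168 CPM against 141 (1.20, 1.11 to 1.29). Cftr was the gene past 1.5-fold on the higher side, at 3.39 and 5.33 CPM, but its ratio of 1.57 had an interval of 0.991 to 2.46, so its depth did not resolve a difference.

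The lower values of Spp1, Aqp1 and Pkhd1 were found in every duct cluster that both libraries filled, though not to the same degree. Spp1 had ratios of 0.640 in cluster 3, 0.489 in cluster 6 and 0.890 in cluster 19. Aqp1 had 0.360, 0.249 and 0.756, and Pkhd1 0.613, 0.394 and 0.654. In cluster 19 the intervals for Aqp1 (0.402 to 1.44) and Pkhd1 (0.380 to 1.14) held 1, so that neither difference could be resolved there. Vtcn1 did not share this pattern: its ratio was 0.641 in cluster 3, 0.957 in cluster 6 and 1.32 in cluster 19 (0.669 to 2.74), and without cluster 11 it was 0.744 over the class. Cftr also turned in cluster 19, to 0.276 (0.0740 to 0.886) on 15 UMIs. Among cells of 13000 UMIs or more the ratios were 0.372 for Aqp1, 0.545 for Pkhd1, 0.587 for Spp1 and 0.680 for Vtcn1, the last no longer past 1.5-fold.

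Several other measures moved with genotype in this class. Acinar markers summed to 1812 CPM in WT and 5341 in Mettl3pKO duct and trunk-like cells; of 13 genes, 12 were measured and 9 were at least 1.5-fold higher, none lower, with Pnlip alone at 0 in WT. Of the class's own 10 markers 5 were at least 1.5-fold lower and none higher: Ambp had a ratio of 0.281, Fgfr3 0.508, Prom1 0.529, Tinagl1 0.563 and Nkx6-1 0.660. Endothelium markers, of the class with the most Aqp1, summed to 21.9 and 19.3 CPM (1 of 3 measured higher, Tie1 at 0 in Mettl3pKO) and erythroid ones to 3481 and 3887 (2 of 7 lower). Neurog3, the endocrine progenitor factor, had UMIs in 236 WT and 16 Mettl3pKO duct cells (396 and 124 CPM). Without those cells the ratios of the 4 genes ran from 0.283 for Aqp1 to 0.639 for Vtcn1, all past 1.5-fold. Duct cells in which a Y-linked gene but not Xist was detected made up 36.5% of WT and 64.0% of Mettl3pKO. Restricted to such cells, the ratios were 0.259 for Aqp1, 0.493 for Pkhd1, 0.548 for Spp1 and 0.484 for Vtcn1. The part of the acinar RNA, of depth and of remaining doublets in these results was not tested.

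**Figure D3:**
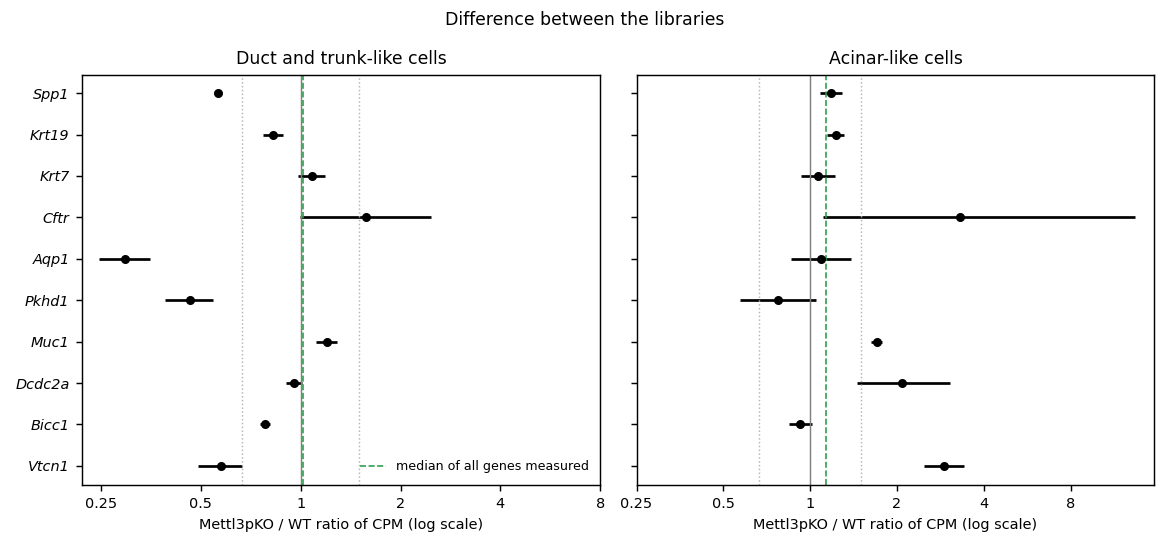
Mettl3pKO/WT ratio of CPM (log axis) of each duct gene in duct and trunk-like cells (left) and acinar-like cells (right), with exact conditional binomial 95% intervals. Dotted lines mark 1.5-fold either way and the dashed line the median of all genes measured. Aqp1, Pkhd1, Spp1 and Vtcn1 lie left of the lower dotted line in the duct class, and Vtcn1, Dcdc2a, Muc1 and Cftr right of the upper one in the acinar class.

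Because the labels concern an RNA-methylating enzyme, GGACT, one form of the motif at which m6A is written, was counted in the longest annotated coding transcript of each gene. Muc1 had 2.68 per kilobase, Spp1 1.99, Krt19 1.90 and Bicc1 1.29, all above the median of 1.01 over 21877 genes. The other 6 were below it. The genes lowest in the Mettl3pKO duct class lay on both sides, with Spp1 above and Pkhd1 (0.928), Vtcn1 (0.763) and Aqp1 (0.381) below. The motif says nothing of whether a site was methylated here.

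Companion genes were read in the same comparison from 5 lists, against the 12.0% of all genes higher and 9.69% lower given above. The shares farthest above that background were 6 of 23 transport genes lower and 2 of 6 osteopontin receptors higher. No list was tested against the background, and the lists were not compared with each other. Of 30 genes of ion and water transport, 23 were measured, 3 higher and 6 lower past 1.5-fold, with a median log2 ratio of -0.30. The lower ones included Atp1b1, the beta subunit of the sodium pump, at 1888 CPM in WT and 992 in Mettl3pKO (ratio 0.526, 0.511 to 0.540). Slc4a4, a sodium bicarbonate cotransporter, had 115 and 56.3 CPM (0.488, 0.435 to 0.547), and the anion exchanger Slc4a2 61.5 and 36.1 (0.586, 0.506 to 0.677). Aqp8, another water channel, stood at 4.26 and 8.98 CPM (2.11, 1.46 to 3.05), beside 269 and 84.0 CPM in acinar-like cells.

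Of genes of the cilium and of polycystic disease, all 25 were measured, with 1 higher, 1 lower and a median of -0.10. Pkd1, the gene of polycystin, was at 6.45 and 10.7 CPM (1.65, 1.20 to 2.27), and Cys1, the cystin gene, at 41.5 and 29.7 (0.715, 0.606 to 0.841). Pkhd1 thus stood lower than most genes of that list. Of 27 keratin and apical genes, 25 were measured, 3 higher and 3 lower, median -0.16. Anxa3, a calcium-dependent membrane-binding protein, had 9.38 and 32.6 CPM (3.47, 2.80 to 4.33), whereas Krt23, a keratin, had 65.7 and 34.9 (0.531, 0.458 to 0.613).

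Receptors of osteopontin were few. Of 9, 6 were measured, 2 higher and none lower, median 0.06. Cd44 had 1.8 CPM in WT and 6.39 in Mettl3pKO (3.56, 2.14 to 6.0) and the integrin subunit Itgb5 at 18.0 and 28.5 (1.59, 1.31 to 1.92). Of 14 transcription regulators known in ducts, 13 were measured, 2 higher and none lower, median 0.13. Onecut2, a cut-homeodomain factor that also led cluster 19, had the widest difference, at 30.6 CPM in WT and 194 in Mettl3pKO (6.32, 5.68 to 7.05). Prox1, a homeodomain factor of the trunk, stood at 304 and 216 CPM (0.713, 0.671 to 0.757).

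Cycling state was read from 9 genes of the late cell cycle, and a cell with 2 or more of their UMIs was called cycling. Of WT duct and trunk-like cells 685 of 1297 (52.8%, 50.1 to 55.6) were so called, and of Mettl3pKO ones 363 of 406 (89.4%, 86.0 to 92.2). With cells thinned to equal depth the shares were 50.7% and 81.5%, and among cells of 13000 UMIs or more 81.6% and 92.8%. Near the threshold, 231 WT and 25 Mettl3pKO cells had 1 such UMI and 89 and 24 had 2. The call alone is not a measure of division, since free RNA can add a UMI, and its part was not tested.

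All 10 genes were lower in cycling than in non-cycling duct cells of WT, but by modest factors. Past 1.5-fold lower were Pkhd1 and Dcdc2a, 2 of 10 against 11.9% of 12343 genes, and none was that much higher, against 7.66%. The median log2 ratio was -0.53 over the 10 and -0.12 over all genes. Pkhd1 stood at 46.0 CPM in cycling and 74.0 in non-cycling cells (0.622, 0.543 to 0.712), and Dcdc2a at 219 and 340 (0.645, 0.606 to 0.687). Bicc1 (0.690), Krt7 (0.694), Aqp1 (0.695), Vtcn1 (0.684), Muc1 (0.742) and Krt19 (0.805) were lower by less. Spp1 was nearly level, at 3018 and 3344 CPM (0.902, 0.886 to 0.919), and Cftr could not be resolved (0.899, 0.499 to 1.64). Cluster 11 was 20.4% cycling cells in WT and held the highest Pkhd1 and Bicc1; without it none of the 10 was past 1.5-fold lower. The medians were 11812 UMIs in cycling and 9398 in non-cycling cells. Endocrine progenitor markers also differed with this split, summing to 764 CPM in cycling and 1850 in non-cycling WT duct cells, and Neurog3 was in 85 and 151 of them. Without the cells with a Neurog3 UMI, an alternative added after the data were seen, 3 of the 10 were past 1.5-fold lower: Pkhd1 (0.597), Dcdc2a (0.610) and Bicc1 (0.648).

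In Mettl3pKO only 43 duct cells were non-cycling. Against them, cycling cells had at least 1.5-fold lower Krt19 (161 and 247 CPM, ratio 0.650, 0.547 to 0.776), Muc1 (161 and 244, 0.658, 0.553 to 0.786) and Aqp1 (21 and 32.3, 0.650). The Aqp1 interval of 0.403 to 1.10 held 1. The Muc1 ratio stayed below 1 in all 18 alternatives (0.604 to 0.787) but past 1.5-fold in only 4 of them. That made 3 of 10 lower and none higher, against 12.4% and 14.4% of 11356 genes. Spp1 again differed little, at 1749 and 1981 CPM (0.882, 0.832 to 0.937). Acinar markers summed to 8559 CPM in these non-cycling cells and 5007 in the cycling ones.

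Aqp1, Pkhd1 and Spp1 were past 1.5-fold lower in Mettl3pKO within each cycling state. Within cycling cells the Mettl3pKO/WT ratios were 0.331 for Aqp1 (0.270 to 0.402), 0.563 for Pkhd1 (0.465 to 0.679) and 0.579 for Spp1 (0.566 to 0.593). Within non-cycling cells they were 0.353 (0.214 to 0.551), 0.437 (0.264 to 0.683) and 0.592 (0.559 to 0.628). There Aqp1 and Pkhd1 rest on 20 Mettl3pKO UMIs each. Vtcn1 stood at 0.669 (0.560 to 0.796) within cycling cells, just short of 1.5-fold, and at 0.541 (0.339 to 0.823) within non-cycling ones. Muc1 was higher in Mettl3pKO in both, at 1.30 (1.19 to 1.42) and 1.47 (1.23 to 1.74).

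**Figure D4:**
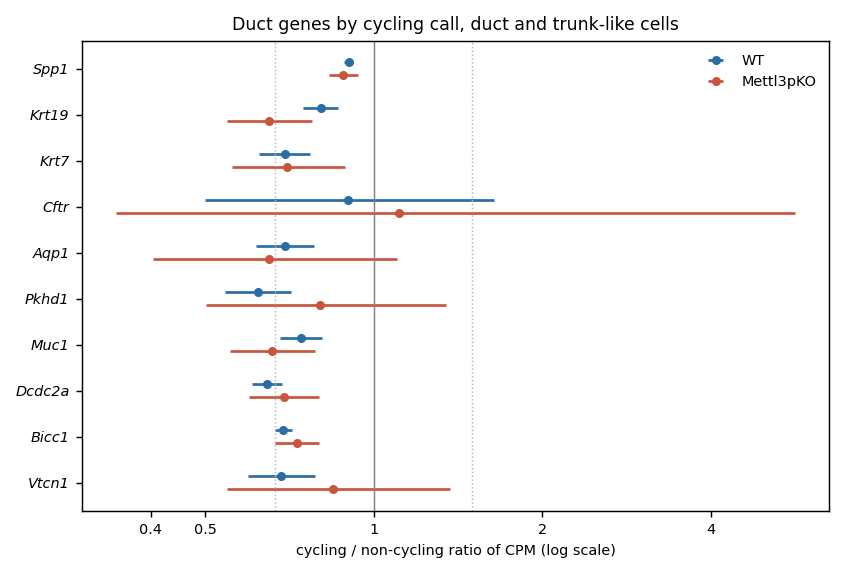
Ratio of CPM between cycling and non-cycling duct and trunk-like cells (log axis) for each duct gene in WT (blue) and Mettl3pKO (red), with exact conditional binomial 95% intervals; dotted lines mark 1.5-fold. All 10 WT ratios lie below 1, with Spp1 nearest to it at 0.902 among the genes of high count, and the Mettl3pKO intervals are wider because 43 cells were non-cycling.

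In acinar-like cells, which make digestive enzymes, 4 of the 10 duct genes were at least 1.5-fold higher in Mettl3pKO and none was that much lower. The background was broad here: 21.9% of 13628 genes were higher and 8.86% lower past that fold, and the median log2 ratio was 0.18 over all genes and 0.27 over the 10. Muc1 stood at 108 CPM in WT (104 to 112) and 184 in Mettl3pKO (180 to 188), a ratio of 1.70 (1.63 to 1.77), and in 53.3% and 73.0% of thinned cells. Vtcn1 stood at 7.03 (6.07 to 8.10) and 20.5 CPM (19.1 to 21.9), a ratio of 2.91 (2.49 to 3.43), and in 4.58% and 13.5% of thinned cells. Both surface genes were thus in more acinar-like cells of Mettl3pKO. Dcdc2a (1.46 and 3.06 CPM) and Cftr (0.146 and 0.486 CPM, from 4 and 20 UMIs) also passed the fold. For Dcdc2a, immune cells held more in the same libraries, at 12.1 and 33.6 CPM, and 8 of 80 thinned immune cells of Mettl3pKO had 5 or more of the duct genes, against 2 of 103 in WT. Whether the acinar levels of Dcdc2a and Cftr are expression was not tested.

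The acinar class was also filled differently: clusters 0 and 1 held 889 and 806 of the 2156 Mettl3pKO cells but 108 and 113 of the 1858 WT cells. Muc1 was high in these clusters in both libraries, at 164 and 182 CPM in WT against 82.5 to 108 in the other 4. Within single acinar clusters its ratio was 0.855 to 1.34, never past 1.5-fold. Vtcn1 was above 1 in all 6 clusters, from 1.12 to 2.34, and past 1.5-fold in 5. The remaining genes of the acinar class differed by less, with ratios of 1.23 for Krt19 (46.3 and 56.7 CPM), 1.18 for Spp1, 1.09 for Aqp1, 1.06 for Krt7, 0.925 for Bicc1 and 0.773 for Pkhd1. Acinar markers themselves summed to 78315 CPM in WT and 42651 in Mettl3pKO acinar-like cells, and cells with a Y-linked gene but no Xist made up 9.31% and 52.0% of them.

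Outside these classes, duct genes were low in alpha-like and beta-like cells except Krt7. Alpha-like cells had ratios of 1.06 for Krt7 (0.929 to 1.20) and 3.47 for Spp1 (13.9 and 48.1 CPM, 2.50 to 4.86). Muc1, at 9.34 and 16.2 CPM (1.73, 1.07 to 2.80), and Dcdc2a, at 3.83 and 8.55 (2.23, 1.09 to 4.64), were also higher there. Of thinned alpha-like cells, 3 of 141 in Mettl3pKO had 5 or more of the duct genes. Beta-like cells had ratios of 0.855 for Krt7 (0.765 to 0.955) and 0.691 for Spp1 (0.469 to 1.00). In several classes outside the epithelium Muc1 was higher in Mettl3pKO: 54.3 against 5.68 CPM in immune, 54.3 against 2.53 in mesothelium-like and 131 against 24.5 in erythroid-like cells. Mesenchyme-like cells stood at 7.26 against 2.23. A UMI of Muc1 was in 21.3% of thinned immune cells of Mettl3pKO and 1.94% of those of WT. The part of free RNA in these Muc1 levels, and in those of the duct and acinar classes, was not tested. Spp1 followed in immune cells, at 104 and 221 CPM.

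**Figure D5:**
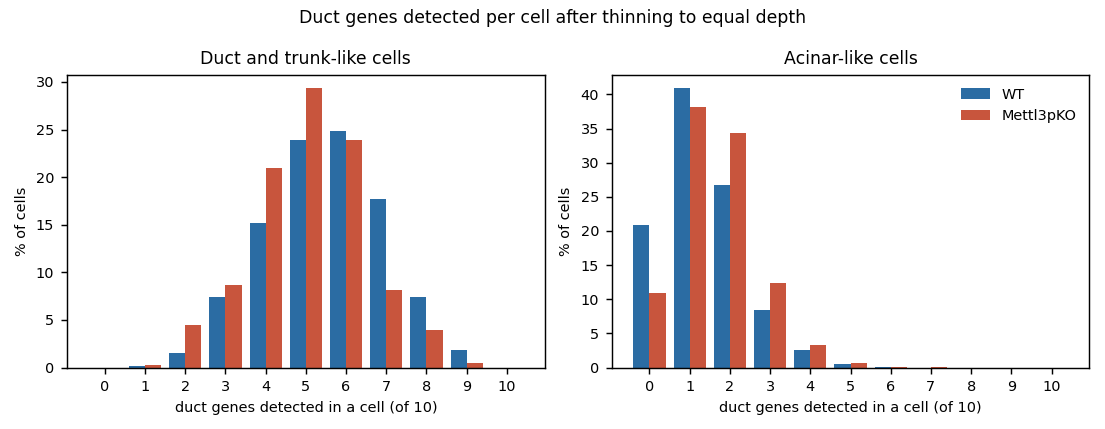
Share of cells (%) by the number of the 10 duct genes detected after thinning each cell to 7811 UMIs, in duct and trunk-like (left) and acinar-like cells (right), WT blue and Mettl3pKO red. In the duct class the WT median is 6 genes and the Mettl3pKO median 5; in the acinar class 1 and 2.

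Counted per cell, duct and trunk-like cells of WT had a median of 6 of the 10 genes after thinning and Mettl3pKO cells a median of 5. At least 5 were found in 75.7% of 1140 WT cells (73.1 to 78.2) and 65.8% of 406 Mettl3pKO cells (60.9 to 70.4), with 157 shallower WT cells left out. Acinar-like cells had 5 or more in 0.580% of WT and 0.835% of Mettl3pKO cells. By cycling state the shares were 69.9% in cycling and 83.2% in non-cycling WT duct cells, and 62.8% and 90.7% in Mettl3pKO. By cluster, the WT and Mettl3pKO shares were 66.6% and 59.5% in cluster 3 and 68.4% and 65.5% in cluster 6. Cluster 19 had 90.2% in WT (76.9 to 97.3) and 83.3% in Mettl3pKO (71.5 to 91.7). Cluster 11 had 90.4% and 94.1%, and it held 33.3% of the WT class but 4.19% of the Mettl3pKO class (17 cells). The most genes found in a thinned duct cell was 9, in 21 WT and 2 Mettl3pKO cells.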

How the data were processed

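The authors deposited 1 table of raw UMI counts for each library, with a row per cell, made by version 1.8 of the BD Rhapsody WTA pipeline per the file headers. The submitters' processing notes name mm10 and Seurat without a role.

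From these counts, cells with 200 or more genes and at most 25% mitochondrial UMIs were kept (5999 WT, 3621 Mettl3pKO). With scanpy 1.11.5, 2000 variable genes without the 10 genes and companion lists, 30 principal components and 15 neighbours gave 28 Leiden clusters at resolution 1.0. Each took the class with the highest mean scaled marker level; a cluster whose median Scrublet score passed 0.1 was left without a name. Names need not be the submitters'.

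Levels are summed UMIs per 1000000 (CPM). Ratios carry exact conditional binomial, levels exact Poisson and shares Clopper-Pearson 95% intervals. A count of 0 was read as allowing 3 UMIs. No gene was tested; the call was 1.5-fold with 20 or more UMIs. Named companions are the 2 to 4 per list whose interval lay farthest from 1. The 10 genes, lists and thresholds were chosen with earlier results of these data known. Intervals were checked on simulated sums, and 24 alternative settings were tried. Positions come from GENCODE M21.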

Additional observations from a re-analysis of the deposited data

Results flagged for a closer look

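Spp1 moved in opposite directions between classes: its Mettl3pKO/WT ratio was 0.562 in duct and trunk-like cells, but 3.47 in alpha-like, 2.12 in immune, 1.90 in mesenchyme-like and 7.12 in mesothelium-like cells. In beta-like and erythroid-like cells it was 0.691 and 0.769. Cells with 5 or more of the duct genes after thinning were also more frequent in Mettl3pKO in some of these classes, at 10% against 1.94% of immune and 15.8% against 7.84% of mesothelium-like cells; the part of doublets was not tested. Vtcn1 likewise had 0.573 in duct and trunk-like cells, 2.91 in acinar-like and 6.48 in erythroid-like cells. The erythroid-like ratio rests on 5 WT and 19 Mettl3pKO UMIs. The libraries also filled that class differently, with 38 WT and 43 Mettl3pKO cells in cluster 21 and 69 and 2 in cluster 24. These differences between classes were not tested, since each class has 1 library per genotype.

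Clusters 16 and 25, left unnamed for their doublet scores, held 213 Mettl3pKO cells and 12 WT cells and entered no comparison. In Mettl3pKO they held Krt19 at 64.1 CPM, Muc1 at 123 CPM and Bicc1 at 170 CPM. The WT levels were 20.1, 60.3 and 60.3, but these rest on 4, 12 and 12 UMIs.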

How the results depend on the processing

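No paired analysis was possible because each genotype had 1 library. Of the recomputed counts of the 10 genes past the fold, 126 stayed within 1.5 times the value reported and 30 did not. In duct and trunk-like cells the 4 genes lower in Mettl3pKO became 2 at 2-fold and 1 in cluster 19 alone (added after the data were seen), and the 1 higher became 0 at 2-fold, at Leiden resolution 0.5 and in clusters 6 and 19 alone. In acinar-like cells the 4 higher became 2 with the 10 genes and lists among the variable genes and 2 in Xist-only cells; the 0 lower became 4 in Y-only and 1 in Xist-only cells. Of the 2 lower in cycling WT cells, there were 4 with the stricter filter, with Scrublet-marked cells kept, at resolutions 0.5 and 2.0 and at 13000 UMIs, 5 in Xist-only and 1 in Y-only cells, and 0 with median-ratio scaling, at 2-fold and without cluster 11. Of the 3 lower in cycling Mettl3pKO cells, there were 6 with no cell filter, 5 at resolution 2.0 and with classes by a cell's own markers, 1 in Xist-only cells, and 0 at 2-fold and with the call after thinning. The 0 higher there became 1 at 13000 UMIs, at 5 cycling UMIs and after thinning, and 4 in Xist-only cells. Of the recomputed ratios, 554 stayed the same, 140 moved and 2 reversed. Among ratios past 1.5-fold, only those of Cftr and Vtcn1 in duct cells crossed 1, in cluster 19 alone (0.276 and 1.32). Ratios nearer 1 crossed it more often. In duct cells Dcdc2a kept its side of 1 in 14 and Krt7 in 16 of 19 alternatives, and in acinar-like cells Spp1 did in 10 of 15. Over 19 alternatives the duct ratio stayed below 1 for Aqp1 (0.189 to 0.756), Pkhd1 (0.394 to 0.654) and Spp1 (0.489 to 0.890). The causes were not tested. Cftr is limited by depth in every class.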

Other observations

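The share of a duct gene's molecules that came from duct and trunk-like cells differed between libraries along with the class's size. This size and the shares are over all kept cells, without a depth floor. Of all Vtcn1 UMIs, 78.6% in WT and 17.5% in Mettl3pKO came from this class, and 18.0% and 70.4% from acinar-like cells. For Aqp1 the duct class gave 44.3% and 20.4%, and for Pkhd1 84.4% and 51.3%. Krt19 UMIs came from acinar-like cells at 20% in WT and 48.8% in Mettl3pKO. Dcdc2a and Spp1 remained largely duct molecules, at 94.9% and 77.6% and at 96.1% and 76.2%.

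Mesothelium-like cells shared several duct genes with the duct class at their own levels. Krt19 (802 and 653 CPM), Krt7 (255 and 223), Aqp1 (201 and 125) and Cftr (10.1 and 9.58) were higher there than in duct and trunk-like cells in both libraries, although the Cftr intervals of Mettl3pKO overlapped, while Pkhd1 (1.52 and 2.39) and Dcdc2a (1.52 and 12.8) were lower. The Mettl3pKO/WT ratio of Aqp1 in this class was 0.622 (0.514 to 0.750), and that of Krt19 0.814 (0.747 to 0.886).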
